A study of Mus musculus with 8 samples.

Results

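The genes described here encode the enzymes and complexes that write, erase or read marks on chromatin and those that move nucleosomes. The set holds 51 named genes out of the 24420 genes present in all 8 count tables: DNA methylation enzymes and the methyl-CpG-binding-domain gene Mbd5, histone methyltransferases, histone demethylases, histone acetyltransferases, bromodomain readers, subunits of the SWI/SNF complex, CHD remodelers, and the chromatin proteins Adnp and Pogz. Members were chosen by name and role and not by a measured value, though earlier results of these data were known by then. All 51 were in the tables, and all 51 were among the 14809 genes that passed the filter on low counts.

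RNA was sequenced from prefrontal cortical slices of young male mice of 5 to 6 weeks. Of the 8 libraries, 3 came from wild-type littermates, 3 from Shank3+/ΔC heterozygotes given saline and 2 from Shank3+/ΔC heterozygotes given romidepsin. The Shank3+/ΔC mouse carries 1 copy of Shank3 without exon 21, which removes the C-terminal part of this postsynaptic scaffold protein. Romidepsin inhibits class I histone deacetylases. Treated mice received 0.25 mg/kg intraperitoneally on each of 3 days, and the cortex was collected 1 day later. What the wild-type mice received is not in their labels, so the genotype and a saline injection cannot be told apart. The deletion is present in all cells of the mouse, and the labels do not say whether libraries of a group came from separate animals, so a p-value here reflects only how far the libraries scatter, which may be technical.

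Chromatin enzymes act as writers, which place methyl or acetyl groups on histone tails or on cytosine, as erasers, which remove them, and as readers, which bind them. Remodelers use ATP to slide or evict nucleosomes. Many of these genes, among them Arid1b, Chd8, Adnp, Pogz, Setd5, Ash1l and Kmt2c, are known as risk genes for autism or intellectual disability, as is SHANK3 itself. Deacetylases, the direct targets of romidepsin, are erasers outside the set.

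Reads assigned to genes numbered 7783537 to 15156318 per library. Levels are given as CPM, reads on a gene scaled to a common library size by TMM normalisation. TMM applies 1 factor per library (0.986 to 1.02 here) and does not remove differences in cell makeup. Wild-type library 3 and saline library 2 lay at opposite ends of the first principal component of all genes (26.6% of the variance), at 24.2 and -35.1. Values without them are given beside some of the results, not all. Shank3 was counted over the whole gene, deleted exon or not, and stood at 299, 308 and 348 CPM in wild type, 316, 252 and 301 in saline and 315 and 313 in romidepsin libraries, so it does not check the genotype labels. The cell type label reads neurons, yet markers of glia and vessels were present in every library: the neuronal Camk2a stood at 4307 to 5227 CPM, the astrocyte transporter Slc1a2 at 3397 to 4374 and the myelin gene Mbp at 1202 to 2442. In such bulk tissue, fewer cells of a type and less RNA per cell cannot be told apart.

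Levels were first compared between genes, per kb of the longest transcript annotated in GENCODE vM21. On that scale the median member stood at 9.35 CPM per kb over the 8 libraries, against 7.26 for the tested genes, and 39 of 51 members lay above the latter value. The highest was Chd3, an ATPase of the NuRD remodeling and deacetylase complex, at 122 ± 9.88 CPM per kb in wild type (SD, n = 3), 131 ± 11.3 in saline (n = 3) and 134 ± 3.92 in romidepsin libraries (n = 2). Next came Smarcc2, a core SWI/SNF subunit (72.4 over all libraries), and Smarca2, a SWI/SNF ATPase (64.8), whose ranges over the 8 libraries met. The lowest were the remodeler Chd7 (1.54), the methylcytosine dioxygenase Tet1 (1.11) and Adnp (0.36).

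**Figure D1:**
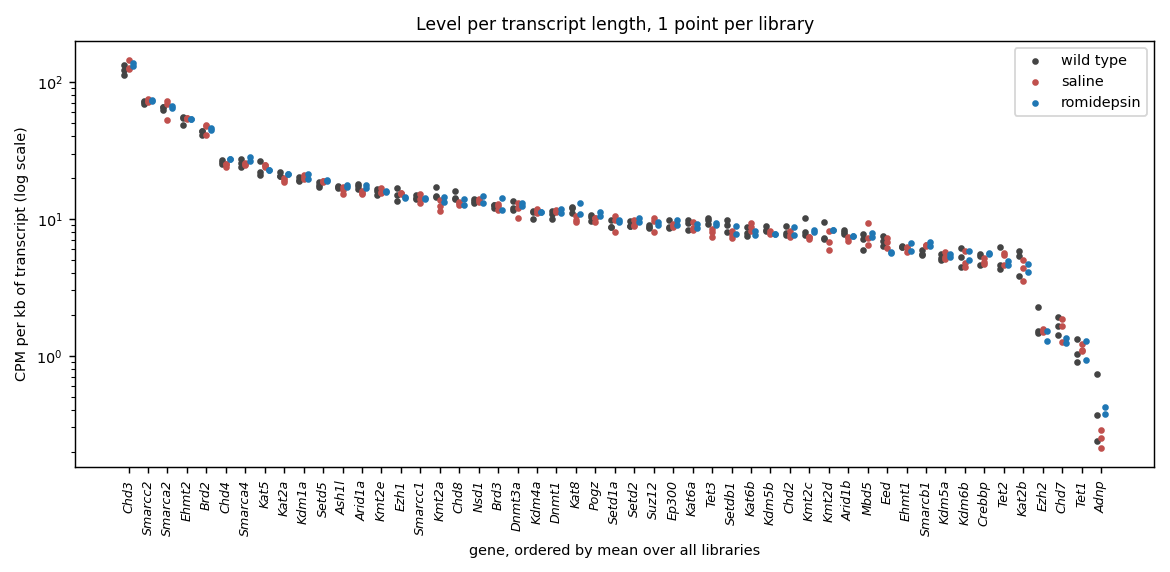
Level of each of the 51 genes in CPM per kb of longest annotated transcript (log scale), ordered by the mean over 8 libraries, with 1 point per library coloured by group. Chd3 stands alone at the top with a mean of 128, most genes lie within a narrow band around the median of 9.35, and Ezh2, Chd7, Tet1 and Adnp form the low end.

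Most paralogs kept 1 order in every library. Among the Polycomb methyltransferases, Ezh1 was 6.58 to 11.3 times as high as Ezh2 per kb in the 8 libraries, Ezh2 being the form known for dividing cells. Smarcc2 was 4.80 to 5.72 times Smarcc1, Smarca2 2.10 to 2.84 times Smarca4, and Arid1a 2.07 to 2.35 times Arid1b. Of the H3K9 methyltransferase partners, Ehmt2 was 7.74 to 9.44 times Ehmt1. Among acetyltransferases, Kat2a was 3.52 to 5.75 times Kat2b and Ep300 1.61 to 1.91 times Crebbp. In the BET bromodomain pair, Brd2 was 3.17 to 4.18 times Brd3, and among the demethylases of methylated H3K4, Kdm5b was 1.41 to 1.77 times Kdm5a. The TET dioxygenases kept the order Tet3, Tet2, Tet1 in every library, with Tet3 6.55 to 10.2 times Tet1. Neither member led in every library in the pairs Dnmt3a and Dnmt1 (0.90 to 1.34), Kmt2c and Kmt2d (0.917 to 1.21) and Kat6a and Kat6b (0.924 to 1.25). These ratios take the longest transcript as the expressed one, which is uncertain for genes with unlike isoforms.

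The spread of member levels between libraries was not set against that of all tested genes. The coefficient of variation among the 3 wild-type libraries had a median of 7.13%, and for 44 of 51 genes the highest of the 8 libraries was under 1.5 times the lowest. The widest ranges belonged to Adnp (3.44 times), Ezh2 (1.79), Kat2b (1.65) and Kmt2d (1.62), and the narrowest to Smarcc2 (1.09). Wild-type library 3 held the highest value for 15 of the 51 genes, against 21.1% of all tested genes, and romidepsin library 2 for 13, against 9.13%.

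**Figure D2:**
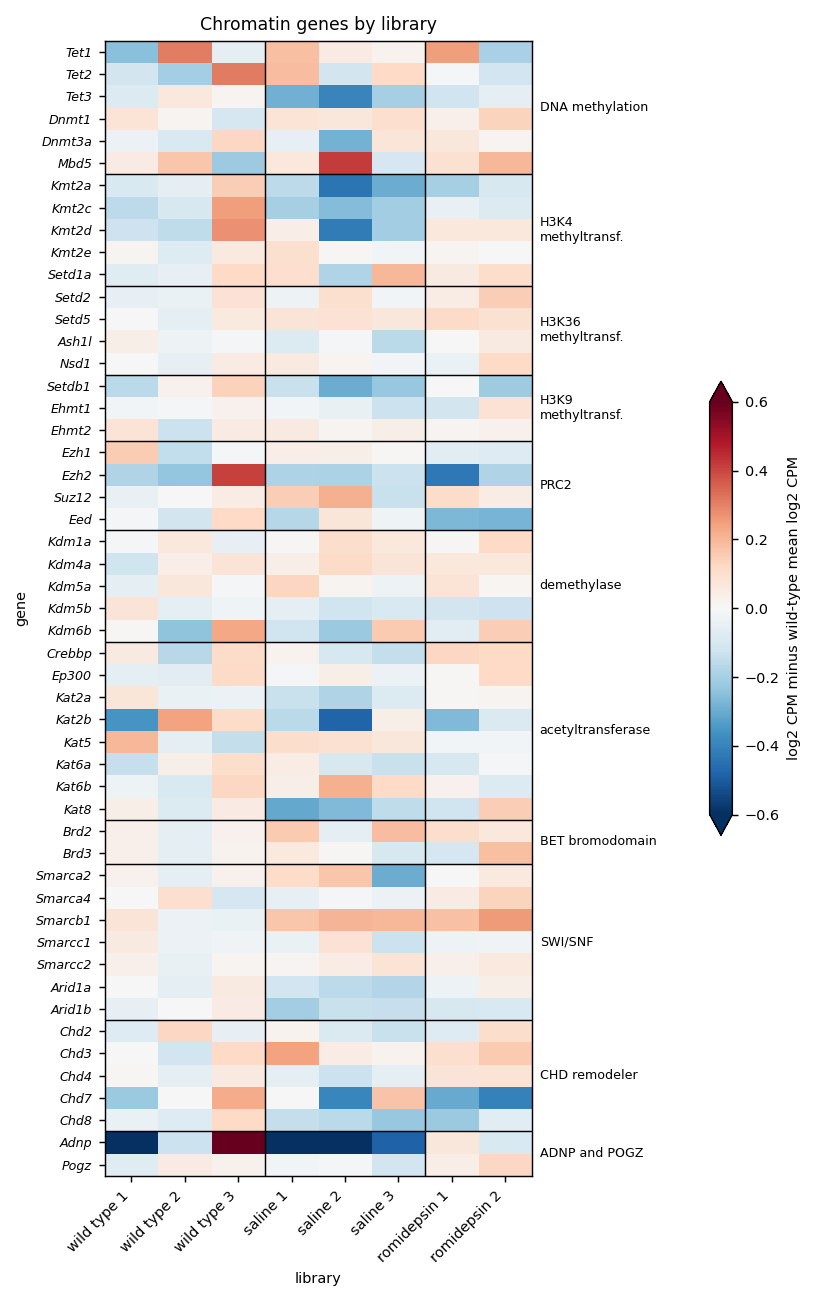
Level of each gene in each library as log2 CPM minus the mean log2 CPM of the 3 wild-type libraries, grouped by class, with colours capped at 0.6 in either direction. Tet3, Kmt2a, Arid1a, Arid1b and Kat8 are blue in all 3 saline columns and Smarcb1 is red in them, while Adnp passes the cap in several libraries.

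The comparison of saline-treated Shank3+/ΔC mice with wild-type mice addresses the deletion together with any effect of the saline injection. Of the 51 genes, 22 stood higher and 29 lower in the saline group, with a median log2 difference of -0.04 against 0.00 over all tested genes. The median was 0.00891 without wild-type library 3 and 0.0138 without both this library and saline library 2, with 27 and 29 members higher. None passed an adjusted p of 0.05 in edgeR's quasi-likelihood test, nor in DESeq2 or limma-voom, where the edgeR test called 0.00675% of all tested genes. At an unadjusted p under 0.05, 7 members were lower (13.7%) and 1 was higher, where 8.39% of all genes passed, 4.80% lower and 3.59% higher. Every saline library was below every wild-type library for 9 members (17.6%), against 6.36% of all genes, and above for 2, against 6.26%.

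The lower genes by unadjusted p were Tet3, Kmt2a, Kmt2c, Arid1b, Chd8, Setdb1 and Arid1a, and the higher one was Smarcb1. The count of 7 rested in part on the libraries that stood apart: it was 2 without wild-type library 3, 3 without saline library 2 and 2 without both, and DESeq2 gave 3. Without wild-type library 3, 19.6% of members and 12% of all genes were below every remaining wild-type library in all saline libraries; without both libraries these shares were 23.5% and 19.7%.

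The promoters of Tet3 and Kmt2a, the genes with the lowest unadjusted p in this comparison, are shown as examples. That of Smarcb1, which leaned the other way, is shown as well. Each runs from 250 bases before to 50 bases after a RefSeq start (GRCm38.p6), 5′ to 3′ on the minus strand of the genome, with each CpG in capitals. They lie at chr6:83441629-83441928 (Tet3, inside the annotated gene and downstream of its first annotated start), chr9:44881240-44881539 (Kmt2a) and chr10:75921565-75921864 (Smarcb1).
Tet3 promoter: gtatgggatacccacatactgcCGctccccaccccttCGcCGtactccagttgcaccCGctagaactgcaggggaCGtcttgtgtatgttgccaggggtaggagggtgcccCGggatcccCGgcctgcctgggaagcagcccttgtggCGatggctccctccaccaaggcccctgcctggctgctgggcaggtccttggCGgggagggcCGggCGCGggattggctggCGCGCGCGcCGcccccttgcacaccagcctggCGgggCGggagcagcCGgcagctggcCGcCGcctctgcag
Kmt2a promoter: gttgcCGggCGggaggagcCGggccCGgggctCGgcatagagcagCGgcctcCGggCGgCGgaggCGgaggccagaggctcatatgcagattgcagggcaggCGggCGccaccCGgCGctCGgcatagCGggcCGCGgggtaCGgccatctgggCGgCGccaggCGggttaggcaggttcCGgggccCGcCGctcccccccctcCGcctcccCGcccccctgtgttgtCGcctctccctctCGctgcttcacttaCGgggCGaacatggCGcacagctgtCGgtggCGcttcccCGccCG
Smarcb1 promoter: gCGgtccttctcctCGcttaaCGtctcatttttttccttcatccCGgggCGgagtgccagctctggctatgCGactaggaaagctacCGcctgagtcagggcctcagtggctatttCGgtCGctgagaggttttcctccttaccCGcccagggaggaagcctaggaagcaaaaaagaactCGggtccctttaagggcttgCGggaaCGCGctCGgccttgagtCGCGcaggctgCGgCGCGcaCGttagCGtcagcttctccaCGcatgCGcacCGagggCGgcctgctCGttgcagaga
The Kmt2a window held 36 CpG dinucleotides at 75.7% GC, that of Smarcb1 27 at 60.7% and that of Tet3 22 at 71.3%. Member windows ran from 1 CpG (Setd5) to 57 (Tet2), so these examples do not span the range. The Setd5 window (chr6:113104685-113104984, plus strand) lies inside the annotated gene, downstream of its first annotated start at 113077365. In all, 42 of the 51 genes had an entry in the RefSeq promoter table, with 56 promoters. Of these, 44 (78.6%) were CpG-rich, with an observed to expected ratio of at least 0.6 and at least 50% GC, against 61.8% of the promoters of tested genes. The Tet3 window, with a ratio of 0.576, was not among them. The letters GGGCGG occurred on either strand in 73.2% of member promoters and 60.0% of those of tested genes, CCAAT in 30.4% and 37.1%. TATAAA was in none of the 56 windows and in 7.32% of those of tested genes, and TGACGTCA in none and 2.92%.

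Among the genes of DNA methylation, Tet3, which oxidises methylcytosine toward its removal, lies on chromosome 6 (83362373 to 83459084, minus strand). It stood at 100.4, 111 and 108 CPM in wild type, 87.0, 80.7 and 92.5 in saline and 97.6 and 102 in romidepsin libraries. The 3 saline libraries were the lowest of the 8. The log2 fold change of saline against wild type was -0.29 (SE 0.08; 0.815 times, 95% interval 0.727 to 0.914), with an adjusted p of 0.317, the smallest among the members. Tet1 and Tet2 had overlapping groups, with Tet1 at 13.0, 19.1 and 14.8 CPM in wild type, 17.5, 15.9 and 15.6 in saline and 18.3 and 13.5 in romidepsin libraries. Tet2 stood at 42.4, 39.8 and 56.8, at 52.0, 42.4 and 49.6, and at 45.3 and 42.3 CPM in the same order. The maintenance methyltransferase Dnmt1 (59.0 to 69.1 CPM), the de novo methyltransferase Dnmt3a (98.2 to 130.4) and Mbd5 (50.9 to 79.0) also overlapped between saline and wild type. As a class these 6 genes had 4 higher and 2 lower, with a median of 0.06.

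The H3K4 methyltransferase family had a median log2 difference of -0.20 over 5 genes, 2 higher and 3 lower. Methylated H3K4 is a mark of active promoters and enhancers. Kmt2a, which lies on chromosome 9 (44803355 to 44881296, minus strand), stood at 237, 243 and 280.3 CPM in wild type, 227, 187 and 206 in saline and 220.5 and 237 in romidepsin libraries. Saline libraries lay below wild type without overlap, and saline library 2 was the lowest. The log2 fold change was -0.30 (SE 0.09; 0.815 times, 95% interval 0.714 to 0.930; adjusted p = 0.378), and it was -0.15 without wild-type library 3 and saline library 2. Kmt2c, whose product acts at enhancers, stood at 114, 119 and 152 CPM in wild type, 111, 106 and 110.3 in saline and 124 and 120.4 in romidepsin libraries. The groups did not overlap, but wild-type library 3 alone was far above the other 2 (log2 fold change -0.23, SE 0.10, adjusted p = 0.530). For Kmt2c the log2 fold change ran from -0.31 to -0.08 over the alternative settings. The related Kmt2d ranged from 141 to 189 CPM in wild type and from 117 to 160.4 in saline libraries, which overlapped. Kmt2e and Setd1a lay slightly above wild type on average, and 52.3% of the exon bases of Setd1a fall within exons of 2 other annotated genes, so its count is uncertain.

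Setdb1, a writer of the repressive H3K9 mark, stood at 45.1, 51.4 and 55.7 CPM in wild type, 46.1, 41.1 and 43.2 in saline and 50.5 and 43.6 in romidepsin libraries. Saline library 1 was above wild-type library 1, so the groups overlapped (log2 fold change -0.22, SE 0.10, adjusted p = 0.574). For Setdb1 the log2 fold change ran from -0.30 to -0.11 over the alternative settings. Its fellow H3K9 writers Ehmt1 (34.1 to 39.6 CPM) and Ehmt2 (194 to 225) overlapped too. In the H3K36 class, Setd5 stood at 119.9, 115 and 125 CPM in wild type and 127, 128 and 126 in saline libraries. These groups did not overlap, yet the difference was small, at 0.08 on the log2 scale. The Polycomb repressive complex 2 genes had 2 higher and 2 lower, with a median of -0.01.

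Of the 8 acetyltransferases, which place marks of open chromatin, 2 were higher and 6 lower, with a median of -0.07. Kat8, the writer of H4 lysine acetylation in the MSL and NSL complexes, stood at 19.0, 17.5 and 19.1 CPM in wild type, 14.9, 15.4 and 16.7 in saline and 17.0 and 20.5 in romidepsin libraries. The saline libraries were the 3 lowest (log2 fold change -0.25, SE 0.12, adjusted p = 0.599). Kat2a, the catalytic subunit of SAGA and ATAC, also did not overlap, at 72.4, 67.0 and 67.1 CPM in wild type and 62.6, 60.7 and 65.0 in saline libraries. The coactivators Crebbp (49.6 to 60.0 CPM in wild type, 50.3 to 56.3 in saline) and Ep300 (82.2 to 93.1 and 83.7 to 88.1) overlapped. Among the 5 demethylases, Kdm5b was the one without overlap, at 77.4, 70.6 and 72.0 CPM against 70.5, 67.4 and 68.9, by -0.09 on the log2 scale.

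The 7 SWI/SNF subunits did not lean together, with 3 higher and 4 lower and a median of -0.02. The DNA-binding subunits Arid1a and Arid1b, alternatives within the canonical complex, both stood lower. Arid1a was at 141, 136 and 147 CPM in wild type, 131, 127 and 125 in saline and 138 and 145 in romidepsin libraries, with the saline group below both others (log2 fold change -0.15, SE 0.07, adjusted p = 0.591). Arid1b was at 88.0, 91.0 and 94.0, at 78.7, 83.0 and 82.7, and at 85.2 and 85.3 CPM in the same order, again with the saline group below both others (log2 fold change -0.16, SE 0.07, adjusted p = 0.561). The core subunit Smarcb1, on chromosome 10 (75896769 to 75921617, minus strand), stood at 44.1, 40.9 and 40.7 CPM in wild type, 47.0, 48.2 and 48.1 in saline and 47.3 and 50.01 in romidepsin libraries. Both Shank3+/ΔC groups were above wild type without overlap (saline against wild type 0.19, SE 0.08; 1.14 times, 95% interval 1.01 to 1.28; adjusted p = 0.550). The ATPases Smarca2 and Smarca4 overlapped between these groups, and saline library 3 was the lowest of the 8 for Smarca2, at 310.5 CPM against 368 to 428 elsewhere.

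Of the 5 CHD remodelers, 1 was higher and 4 lower, with a median of -0.07. Chd8 stood at 121, 118 and 136 CPM in wild type, 113, 112 and 107 in saline and 107 and 119.6 in romidepsin libraries. The saline group was below wild type without overlap (log2 fold change -0.18, SE 0.08, adjusted p = 0.561). Chd3, the one that was higher, ranged from 818 to 962 CPM in wild type and from 899 to 1047 in saline libraries.

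Adnp showed the largest fitted difference and the lowest counts. Its raw counts were only 14, 24 and 46 in wild type, 19, 10 and 11 in saline and 21 and 18 in romidepsin libraries. On the CPM scale these were 1.18, 1.81 and 3.61, then 1.24, 1.05 and 1.41, then 2.07 and 1.85, so wild type overlapped saline and spanned the romidepsin group. The fit gave -0.84 (SE 0.41; 0.559 times, 95% interval 0.305 to 1.02; adjusted p = 0.608) for saline against wild type, and values of -1.13 to -0.20 over the alternatives. In GENCODE vM21, 82.1% of the exon bases of Adnp lie within exons of Gm20716 on the same strand, a gene with no row in the count tables. Reads that fall on such bases could have been set aside as ambiguous, and whether the counting used an annotation with Gm20716 is not given in the sources used here. Pogz, a heterochromatin-linked zinc-finger protein, had 62.2 to 67.7 CPM in wild type and 60.4 to 65.2 in saline libraries, with overlap.

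**Figure D3:**
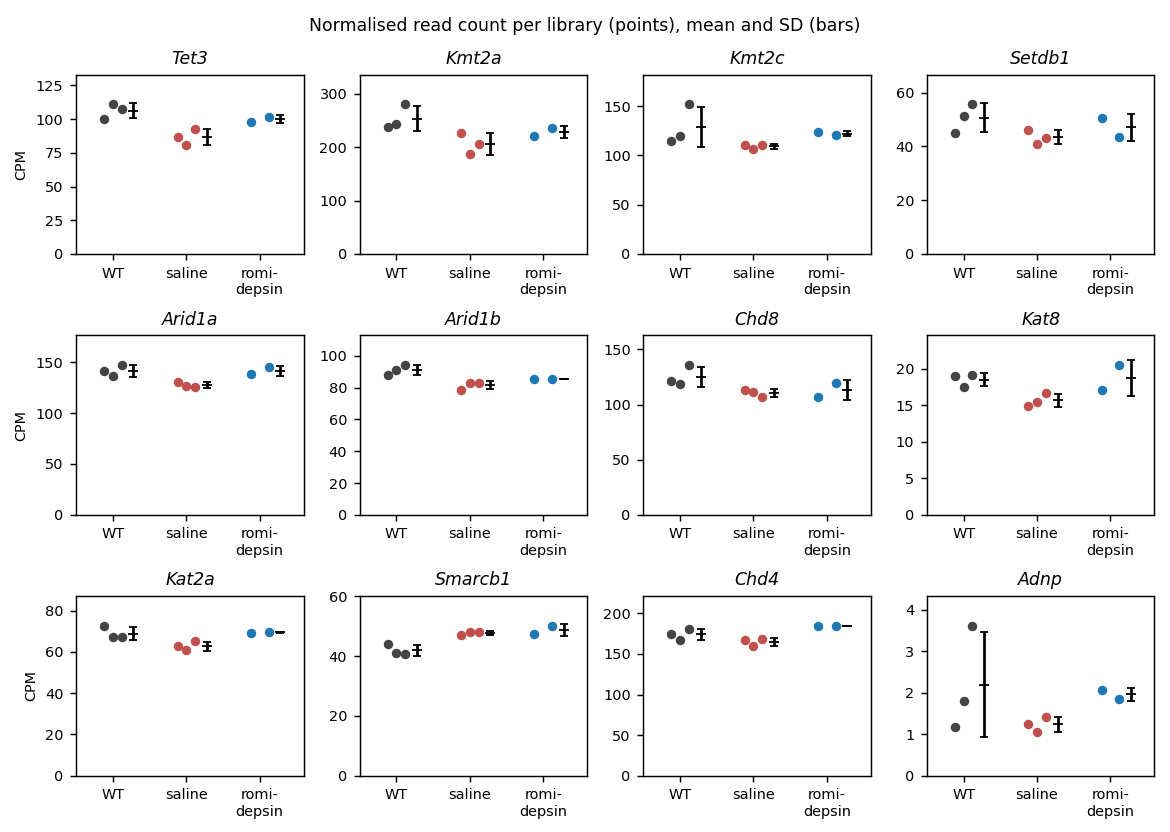
Normalised level in CPM of 12 chromatin genes in each library (points, 3 wild-type, 3 saline and 2 romidepsin), with the mean and SD of each group at its right; axes start at 0. The saline group is lowest for Tet3, Arid1a, Arid1b and Kat2a, and Smarcb1 is higher in both Shank3+/ΔC groups. For Adnp the wild-type points overlap the saline points and span the romidepsin points.

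Transcript length and cell type markers also differed with the groups or the members. The longest annotated transcript had a median of 6.76 kb for members and 3.43 kb for tested genes with a length, and 38 of 51 members exceeded 4.87 kb, the upper quartile of those genes. Over all genes past that length the median log2 difference was -0.02 and 6.67% were lower at an unadjusted p under 0.05, against 0.03 and 2.92% among genes under the lower quartile of 2.25 kb. All 7 members that were lower at that threshold were longer than the upper quartile, 18.4% of the 38 there. Among genes of 8 kb or longer, 6 of 21 members (28.6%) and 7.28% of all 865 genes were lower at that threshold. Relative to the wild-type mean, the median of these 865 genes was -0.04, -0.001 and 0.06 in wild-type libraries. It was 0.006, -0.02 and -0.06 in saline libraries. The split by length was not repeated without wild-type library 3 or saline library 2. The 7 endothelial and mural markers summed to 197 to 237 CPM in wild type, 127 to 177 in saline and 170 to 207 in romidepsin libraries, with no marker at 0 in all libraries. All 7 were lower in saline than in wild type (median log2 difference -0.49) and higher with romidepsin than with saline (0.31). Oligodendrocyte markers summed to 2893 to 4696, 2810 to 5210 and 3123 to 3580 CPM in these groups, and meningeal markers to 85.8 to 143, 89.3 to 210 and 109 to 157. The 6 olfactory and septal markers summed to 83.0 to 119.6, 99.98 to 128 and 102 to 104 CPM, mostly from Reln. Of the 5 of them that were tested, all were higher in saline than in wild type (median log2 difference 0.86), and 4 were lower with romidepsin than with saline (median -1.37). Eomes stood at 0.337, 0.377 and 0.941 CPM in wild type, 0.131, 3.77 and 4.87 in saline and 0.0985 and 0.103 in romidepsin libraries. Saline libraries 2 and 3 were thus high and saline library 1 was not. All 7 inhibitory neuron markers were higher with romidepsin than in wild type, by a median of 0.16, and 6 of 7 were higher than with saline, by 0.13. All 6 microglia markers were likewise higher than in wild type, by 0.16, and 5 of 6 were higher than with saline, by 0.07. The part of length and of cell makeup in the result was not tested.

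**Figure D4:**
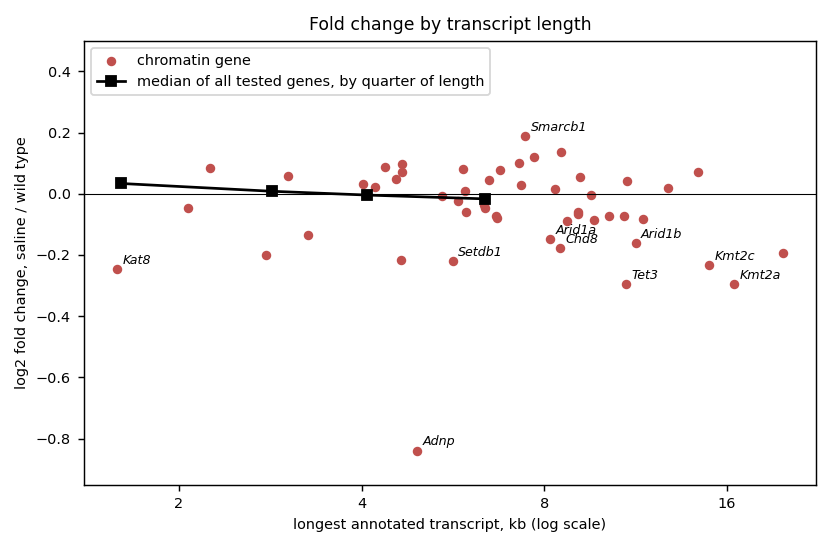
Log2 fold change of saline against wild type for each of the 51 genes against the length of its longest annotated transcript in kb (log scale), with the median of all tested genes in each of 4 equal bins of length as squares. The medians of all genes run from 0.03 in the shortest to -0.02 in the longest bin, and Tet3, Kmt2a and Kmt2c lie below them at long lengths.

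The comparison of romidepsin with saline, both in Shank3+/ΔC mice, addresses the effect of the drug. Here 34 members stood higher and 17 lower, with a median log2 difference of 0.02 against 0.00 over all genes. The median was -0.00607 without romidepsin library 2. No member and no gene at all (0%) passed an adjusted p of 0.05 in edgeR's quasi-likelihood test. DESeq2 called 2 genes and no member. At an unadjusted p under 0.05 edgeR gave 1 member higher and 0 lower, where 3.26% of all genes passed in either direction, and DESeq2 gave 0 higher. Both romidepsin libraries were above all saline libraries for 14 members (27.5%), against 10.8% of all genes, and below for 4 (7.84%), against 10.2%. The share above was 35.3% against 17.6% of all genes without saline library 2, 49.0% against 23.5% without romidepsin library 1 and 31.4% against 22.7% without romidepsin library 2. This comparison and the one before share the saline libraries, so a low saline library moves both in opposite directions.

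Tet3 had the smallest unadjusted p again, with the romidepsin libraries at 97.6 and 102 CPM above the 3 saline libraries at 80.7 to 92.5 (log2 fold change 0.20, SE 0.09; 1.15 times, 95% interval 1.01 to 1.31; adjusted p = 1.00). Next was Chd4, the main ATPase of the NuRD complex, in which class I deacetylases also sit. It stood at 175, 167 and 181 CPM in wild type, 168, 159 and 168 in saline and 184 in both romidepsin libraries, which were the highest of the 8 (log2 fold change 0.16, SE 0.08). The acetyltransferases had 6 higher and 2 lower, with a median of 0.04. Crebbp was at 56.3, 52.1 and 50.3 CPM in saline and 60.6 and 60.4 in romidepsin libraries without overlap (log2 fold change 0.19, SE 0.10). Kat2a was at 69.3 and 69.6 CPM with romidepsin, above the saline range of 60.7 to 65.0 (log2 fold change 0.15, SE 0.08), and Kat8 at 17.0 and 20.5 was just above its saline range of 14.9 to 16.7 (log2 fold change 0.26, SE 0.13). Kat6b, a MOZ-family acetyltransferase, lay the other way, at 63.2, 71.6 and 67.1 CPM in saline and 62.7 and 58.2 in romidepsin libraries (log2 fold change -0.15, SE 0.10). The adjusted p of each of these genes was 1.00.

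The H3K4 methyltransferase family had 4 higher and 1 lower with a median of 0.15, the largest class median over more than 2 genes in this comparison. Relative to the wild-type mean, the class median was 0.04, -0.26 and -0.21 in saline and 0.02 and 0.004 in romidepsin libraries. The groups thus overlapped, with saline library 1 above both romidepsin libraries. Kmt2d stood at 144, 141 and 189 CPM in wild type, 160.4, 117 and 135 in saline and 163 in both romidepsin libraries. Romidepsin libraries were above all saline libraries and within the wild-type range (log2 fold change 0.25, SE 0.14). Arid1a was above saline without overlap (log2 fold change 0.15, SE 0.08), at levels inside its wild-type range. The H3K36 class had 4 of 4 higher, by a median of only 0.05.

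The 4 Polycomb repressive complex 2 genes, whose complex trimethylates H3K27, were all lower with romidepsin, by a median of -0.11, and 2 of them did not overlap saline, as was so for 10.2% of all genes in that direction. Eed, the subunit that reads the mark, stood at 14.2, 13.2 and 15.4 CPM in wild type, 12.6, 15.0 and 14.0 in saline and 11.8 and 11.7 in romidepsin libraries. The romidepsin libraries were the 2 lowest of the 8 (log2 fold change -0.23, SE 0.15, adjusted p = 1.00). Ezh1 stood at 65.1, 64.9 and 63.7 CPM in saline and 60.6 and 60.0 in romidepsin libraries, but its wild-type range of 57.2 to 70.5 spanned both. Ezh2 was low everywhere, at 4.21, 4.07 and 6.35 CPM in wild type, 4.19, 4.19 and 4.36 in saline and 3.55 and 4.22 in romidepsin libraries, with overlap. Suz12, at 37.2 to 39.6, 35.0 to 44.4 and 39.6 to 41.4 CPM, also overlapped between romidepsin and saline. The log2 fold change was -0.13 (SE 0.27) for Ezh2 and only -0.01 (SE 0.11) for Suz12. Against wild type, Suz12 was slightly higher with romidepsin, without overlap (log2 fold change 0.08, SE 0.11). Relative to the wild-type mean, the class median was -0.13 in wild-type library 2 and -0.16 and -0.13 in romidepsin libraries. Among the CHD genes, Chd7 was lowest in romidepsin library 2 and saline library 2, at 12.8 and 12.9 CPM, with 13.7 in romidepsin library 1 and 16.8 and 19.0 in the other saline libraries (log2 fold change -0.29, SE 0.18).

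**Figure D5:**
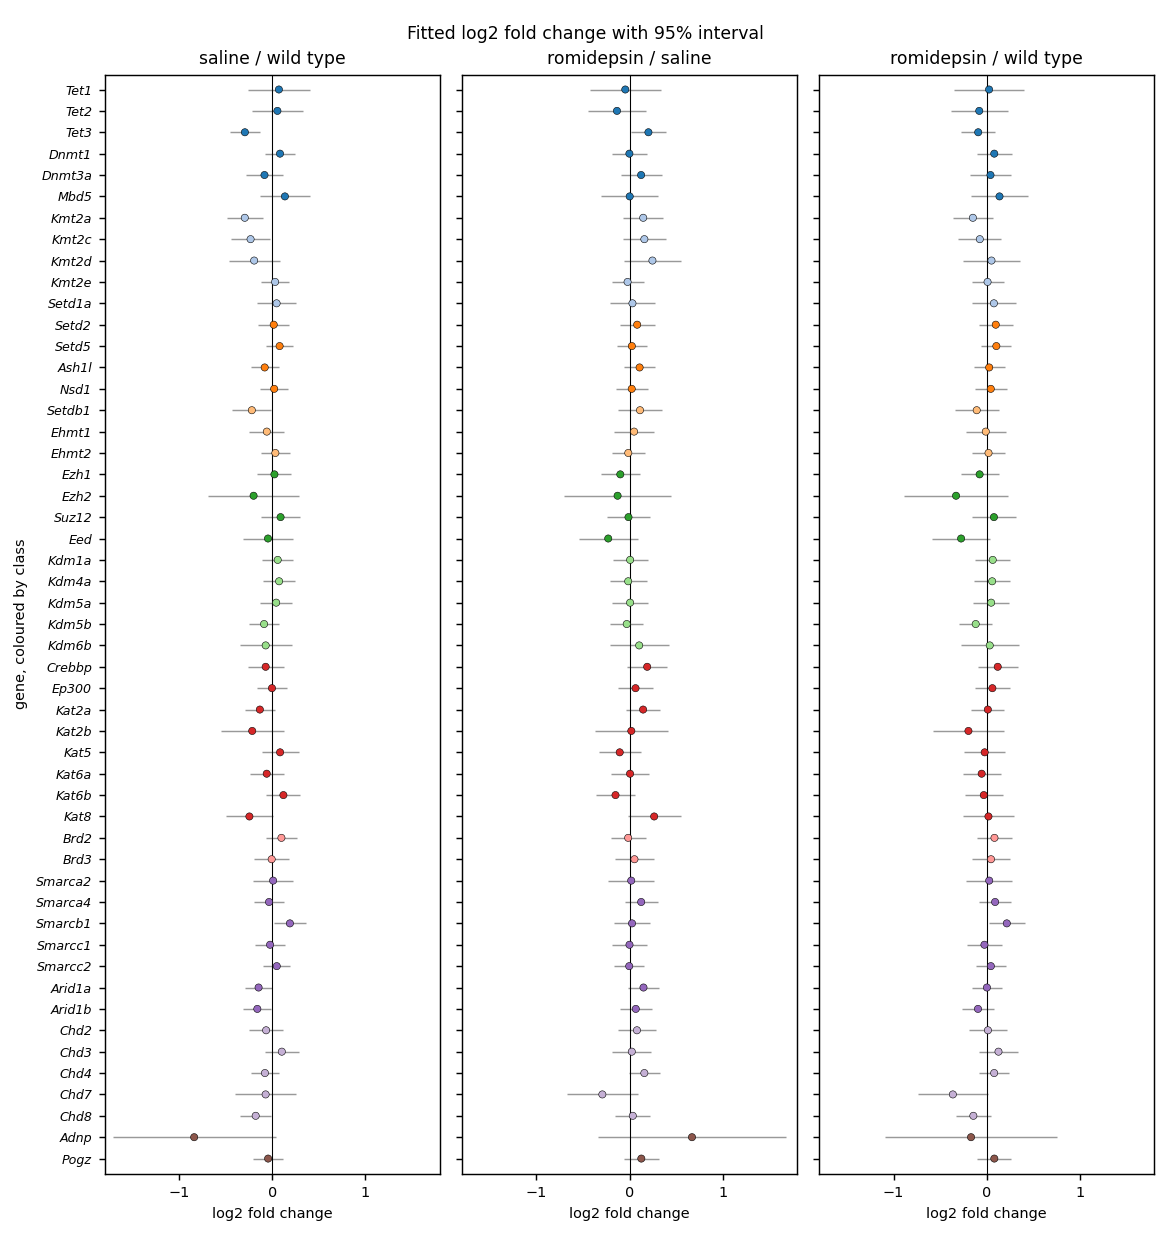
Fitted log2 fold change of each gene (points, coloured by class) with its 95% interval (bars) in saline over wild type, romidepsin over saline and romidepsin over wild type. Most intervals span 0 and are narrow, Tet3 and Kmt2a lie left of 0 in the first panel, and Adnp and Ezh2 have the widest bars.

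Romidepsin-treated Shank3+/ΔC mice were last set against wild type, which addresses how far treated animals differ from wild-type littermates. Members divided into 32 higher and 19 lower, with a median of 0.02 against 0.00 over all genes. Without wild-type library 2 the median was -0.0124, and without romidepsin library 2 it was -0.00402. None passed an adjusted p of 0.05 in edgeR's quasi-likelihood test, where 0.00675% of all genes did, and none in DESeq2 or limma-voom. At an unadjusted p under 0.05, 1 member was higher and 0 lower, where 3.24% of all genes passed, 1.46% higher and 1.78% lower. Groups did not overlap for 7 higher (13.7%, all genes 9.34%) and 5 lower members (9.80%, all genes 9.08%). These shares shifted with 1 library: without romidepsin library 1, 21 members were above wild type (41.2%, all genes 21.6%) and 6 below (11.8%, all genes 21.5%). Without romidepsin library 2, 8 were above (15.7%, all genes 20.9%) and 12 below (23.5%, all genes 20.8%).

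Smarcb1 led this comparison, at 48.6 ± 1.93 CPM with romidepsin (SD, n = 2) and 41.9 ± 1.93 in wild type (SD, n = 3), by 0.22 (SE 0.09; 1.16 times, 95% interval 1.02 to 1.33; adjusted p = 0.999). Chd7 stood at 14.5, 16.9 and 19.7 CPM in wild type, above both romidepsin libraries (log2 fold change -0.36, SE 0.18), and Eed was likewise lower without overlap (log2 fold change -0.28, SE 0.15). Kmt2a at 220.5 and 237 CPM was still below the wild-type libraries, though romidepsin library 2 and wild-type library 1 differed by less than 1 CPM (log2 fold change -0.15, SE 0.10). Arid1b (log2 fold change -0.09, SE 0.08) and Kdm5b, with 67.9 and 67.2 CPM (log2 fold change -0.12, SE 0.08), were below wild type without overlap. Setd5, with 129.9 and 128 CPM, was above it (log2 fold change 0.10, SE 0.08). Tet3, Arid1a, Kat8 and Chd8 overlapped wild type with romidepsin. Chd8 had a log2 fold change of -0.14 (SE 0.09), Chd3 of 0.13 (SE 0.10) and Ezh2 of -0.33 (SE 0.26). That of Ezh2 ran from -0.46 to -0.09 over the alternative settings. Each of the genes named in this comparison had an adjusted p of 0.999.

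The size of change these libraries could still hold is given by the intervals. The 95% interval of the fold change lay within 1.5-fold in either direction for 49 of 51 genes in saline against wild type, the exceptions being Adnp and Ezh2. It did so for 48 in romidepsin against saline (not Adnp, Chd7 and Ezh2) and for 47 in romidepsin against wild type (not Adnp, Chd7, Eed and Ezh2). Smaller differences were not resolved, as the median SE was 0.08 to 0.10 on the log2 scale.

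Other genes of the same machinery were taken from a list. Of 145 further chromatin genes listed, 137 were tested and none passed the adjusted threshold of edgeR's quasi-likelihood test in any comparison. In saline against wild type 54 were higher and 83 lower, with 11 lower (8.03%) and 1 higher at an unadjusted p under 0.05 and 21 lower (15.3%) and 3 higher without overlap. Over all tested genes 4.80% were lower and 3.59% higher by that p, and 6.36% lower and 6.26% higher without overlap. The counts of the further chromatin genes rest on the same libraries as those of the members. They were not repeated without wild-type library 3 or saline library 2. By unadjusted p the first 5 were Bcl11b, a zinc-finger subunit of neuronal SWI/SNF (71.2 ± 7.61 CPM in saline, 87.6 ± 5.13 in wild type, log2 fold change -0.30), Brd9 (74.2 ± 2.45 and 87.9 ± 3.82, -0.25), Dpf2 (41.3 ± 3.76 and 51.3 ± 3.97, -0.31), Dpf1 (56.4 ± 3.96 and 68.4 ± 4.10, -0.28) and the methyltransferase Smyd3, which was higher (36.9 ± 6.35 and 27.7 ± 5.22, 0.41). Each mean is over 3 libraries with its SD, and the smallest adjusted p was 0.378. Of the 20 further SWI/SNF genes tested, which include Bcl11b, Dpf1 and Dpf2 but not Brd9, 5 were higher and 15 lower, where 48.7% of all genes were lower.

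In romidepsin against saline the 137 genes divided into 76 higher and 61 lower, with 2 in each direction (1.46%) at an unadjusted p under 0.05, where 1.73% of all genes were higher and 1.53% lower. Without overlap 19 were higher (13.9%, all genes 10.8%) and 12 lower (8.76%, all genes 10.2%). The demethylase Kdm4c had the smallest unadjusted p, at 20.2 ± 1.73 CPM (SD, n = 2) against 26.3 ± 0.873 in saline (SD, n = 3), by -0.38. Auts2, a partner of a Polycomb complex, was at 64.2 ± 2.33 and 50.3 ± 9.67 CPM (0.34), followed by Kdm5c (0.19) and Ash2l (-0.24). In romidepsin against wild type 58 were higher and 79 lower, with a median of -0.02 where that of the members was 0.02. The genes with the smallest unadjusted p were Kdm4c (-0.40), the Polycomb ligase Ring1 (20.2 ± 2.29 and 27.2 ± 0.610 CPM, -0.42), Brd9 (-0.26), Smyd3 (0.34) and Dpf2 (-0.22).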

How the data were processed

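Raw counts per gene, as deposited by the authors, were the starting point for the 8 libraries. Per the submitters' processing notes, bcl2fastq 2.17.1.14, TopHat2 2.1.1 and HTSeq 0.6.1 were used with mm10 (GRCm38); neither the strand setting nor the annotation is named in these sources. Per the file contents, reads on genes were 32.4% to 35.3% of alignments in the 7 tables with summary rows, and ambiguous reads 0.266% to 0.306%; such rows were left out of library sizes. With R 4.3.3, edgeR 4.0.16 (filterByExpr, TMM, robust quasi-likelihood fit, 1 term per group, all 8 libraries) tested 14809 genes and removed 9611, with Benjamini-Hochberg adjustment over all tested genes and a threshold of 0.05. The common biological coefficient of variation was 9.33%. SE and 95% intervals come from the fitted log2 fold change. CPM used the same TMM sizes. No 2 libraries were identical. The fit was tested on simulated counts. DESeq2 1.42.0, limma-voom (limma 3.58.1), other scalings, no filter, the 2 groups alone, a replicate block and leaving out libraries were tried. Genes were named by rule: the 10 members with the smallest p in each comparison, the 3 highest and 3 lowest per kb, listed paralogs, and 5 further chromatin genes per comparison, of which 1 is not reported here. Other members appear as examples of their class or because their groups did not overlap, and were chosen after their values were seen. The members and lists were chosen with earlier results of these data known. Promoters are from RefSeq (GRCm38.p6); both strands were searched. Exon overlaps are from GENCODE vM21.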

Additional observations from a re-analysis of the deposited data

How the results depend on the processing

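No member was called in any of the 17 settings of any comparison, and the 10 members with the smallest p in each comparison kept their direction there. The count of all genes called was unstable. In saline against wild type it was 1, and 2 with only these groups fitted, 12 with no filter, 31 with DESeq2, 1 to 54 with 1 library left out and 99 without wild-type library 3 and saline library 2. In romidepsin against saline it was 0, 2 with DESeq2 and 0 to 3 with 1 library left out. In romidepsin against wild type it was 1, 0 with upper-quartile scaling or library totals alone, 2 with no filter, 4 with DESeq2, 0 to 3 with 1 library left out and 14 without both libraries. With a replicate block the counts were 4, 0 and 0 in the order given, and members called stayed at 0. Correlations of same-numbered libraries, taken on deviations from the group means, were -0.18 to 0.10. With so few libraries per group, such values cannot decide whether the numbers pair the libraries. The block serves as a check alone. The members' median in saline against wild type was -0.0448 to 0.00891 with 1 library left out (0.00891 without wild-type library 3) and 0.0138 without both libraries. It was -0.00607 to 0.0608 in romidepsin against saline and -0.0124 to 0.0459 in romidepsin against wild type. The adjusted p in saline against wild type ranged from 0.155 to 0.853 for Tet3 and from 0.238 to 0.857 for Kmt2a. Members lower at an unadjusted p under 0.05 in saline against wild type numbered 2 to 8. The cause of these shifts was not tested. With 2 romidepsin libraries and 7783537 reads on genes in the shallowest library, small differences were not resolvable.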
